A study of Mus musculus with 35 samples.

Results

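The potassium channel genes were all genes whose symbol on the array began with Kcn, which took in pore-forming subunits, their auxiliary subunits and a few regulators. The rule used the symbols alone and no measured value. It found 101 probes for 72 genes, among 24620 probes for 15968 genes in all. Expression was measured by BeadChip microarrays in 35 samples of 2 brain regions of male mice of 2 inbred strains, aged 3 to 4 months, with no transgene or treatment named in the labels. There were 9 arrays of A/J hippocampus, 8 of A/J amygdala, 9 of C57BL/6J hippocampus and 9 of C57BL/6J amygdala. Tissue came from punches of frozen brain, taken on both sides for the amygdala and on the left side for the hippocampus, so region and side cannot be told apart. A punch holds neurons, glia and vessels, and in such bulk samples fewer cells of a type and less RNA per cell cannot be told apart.

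Potassium channels let potassium leave the cell, set the resting potential and end the action potential. Voltage-gated channels of the Kcna, Kcnc and Kcnd families open on depolarization and are tuned by cytoplasmic partners encoded by the Kcnab and Kcnip genes. The Kcnf, Kcng and Kcns genes encode subunits that form no channel alone and modify others. Kcnk genes encode the 2-pore-domain channels that carry leak current, Kcnj genes encode inward rectifiers, Kcnn and Kcnma1 encode calcium-activated channels, and Kcnq3 is a subunit of the channel behind the M-current. Neurons of the hippocampus and the amygdala rely on different mixtures of these channels for their firing patterns.

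A probe counted as detected on an array when its signal stood above the array's negative controls at a detection p under 0.01, and it was tested when detected on at least 8 arrays. Values are normalized log2 signals, so that a difference of 1 is a 2-fold change. Levels were compared between samples for each probe, and the mean signal of different probes served to choose which to show. The arrays detected between 6099 and 11039 probes with a median of 8711, and 8 arrays detected fewer than 7000 (4 of hippocampus and 4 of amygdala).

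Marker genes were read to describe the punches. The counts below stand beside 6.42% of all tested probes higher in hippocampus and 5.76% lower. Of the hippocampal neuron markers, 5 of 6 tested were higher in hippocampus and none was lower, with a median difference of 1.68. Of the amygdala and ventral forebrain markers, 6 of 7 were lower in hippocampus and none higher, with a median of -2.32. The remaining amygdala marker, Rspo2, differed by 0.47 (limma adjusted p = 0.0501). Smoc2, Isl1, Tacr1 and the striatal marker Penk were detected on no array of the region where they are lower, so they were tested through the other. The lists were chosen with earlier results of these data known, so these counts are no separate check of the region labels. Genes listed as markers of thalamus and striatum differed too. Whether their signal came from neighbouring tissue or from cells of the punched regions themselves was not tested. Thalamic markers were higher in hippocampus for 4 of 5 genes (median 1.83), and their summed linear signal ran between 1780 and 8533 in hippocampus and between 716 and 1414 in amygdala. Striatal markers were lower in hippocampus for 5 of 5 genes (median -2.79), with sums between 273 and 565 in hippocampus and between 926 and 9711 in amygdala. GABA neuron markers were lower for 3 of 5 genes and oligodendrocyte markers for 4 of 5, while astrocyte, microglial and vascular markers had 0 of 5, 0 of 5 and 0 of 4 genes past the threshold in either direction. Of 3 choroid plexus genes 1 was lower (Clic6), and their sum ranged widely, between 143 and 13519 in hippocampus and between 312 and 17881 in amygdala. The part of these tissue differences in the Kcn results below was not tested.

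Of the 72 Kcn genes, 39 had a tested probe, 9 were detected on 1 to 7 arrays and 24 were detected on no array. The tested set held 48 probes, of which 17 probes for 15 genes were detected on all 35 arrays. Every gene of the Kcnab (3 genes), Kcnc (3) and Kcnip (4) subfamilies was tested, and 1 of 5 genes of the Kcne auxiliary subunits. Of the Kcnk leak channels, 6 of 9 genes were tested. Of the inward rectifiers, 4 of 13 Kcnj genes were tested and 5 were detected on no array. Both Kcnmb genes on the array, which encode regulatory subunits of the large-conductance calcium-activated channel, were undetected, as were Kcna4, Kcna5, Kcna7, Kcnd3, Kcnn3, Kcnt1, Kcnv1 and Kcnv2. Undetected here means not above background on this platform. For the tested genes Kcnc2, Kcnj14, Kcnk2, Kcnk4, Kcnk13 and Kcnn2, 1 probe was tested while another was detected on no array. Among the genes under the limit, Kcnj9, a subunit of the G-protein-gated inward rectifier, was detected on 6 arrays, 4 of A/J hippocampus and 2 of A/J amygdala, and on none of the 18 C57BL/6J arrays. It was not tested, and its levels, between 4.57 and 5.65 in A/J, against 4.47 to 5.02 in C57BL/6J, overlapped.

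**Figure D1:**
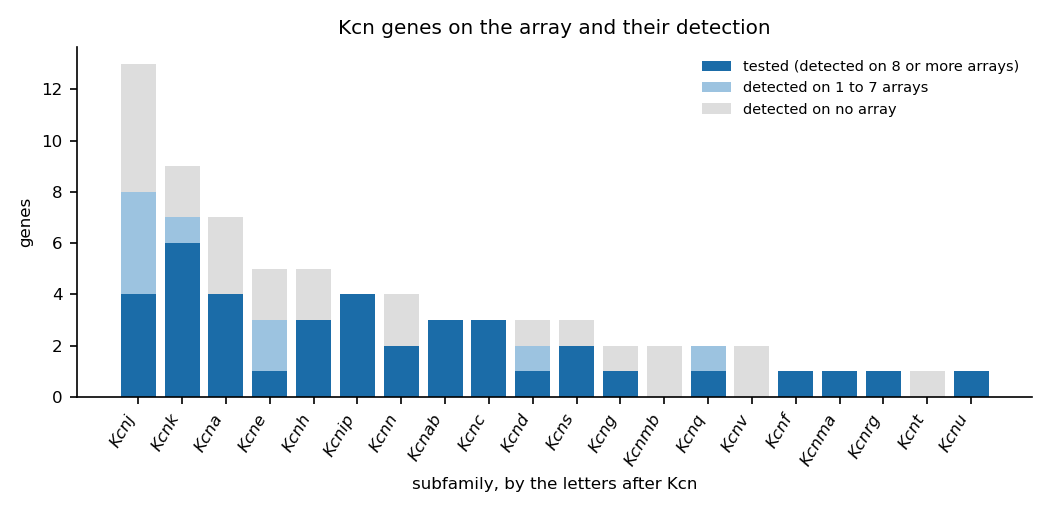
Number of Kcn genes on the array by subfamily (y axis, genes), split into genes tested, genes detected on 1 to 7 arrays and genes detected on no array. The Kcnj subfamily was the largest with 13 genes, of which 4 were tested, while all 4 Kcnip and all 3 Kcnc genes were.

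The first comparison asked which channel genes differed between hippocampus and amygdala across both strains. Of the 48 Kcn probes, 7 were higher in hippocampus at an adjusted p under 0.01 (limma, Benjamini-Hochberg over all tested probes), which is 14.6% against 6.42% of all 10408 tested probes. Another 4 were lower, which is 8.33% against 5.76% of all. With arrays scaled by their medians instead, 3 Kcn probes were higher and 3 lower, as 4 probes of the 7 and 1 of the 4 lost the call. Without the share of all probes under that scaling, these counts do not show whether the larger Kcn share held. Of the 7, the Kcnk4 and Kcng4 probes were detected on fewer than 8 arrays of amygdala and so were tested through their detection in hippocampus, where they are higher. The median difference was 0.03 over the Kcn probes and 0.00 over all probes, and the median size of the difference, regardless of sign, was 0.27 for the Kcn probes and 0.16 for all. At an unadjusted p under 0.05, 21 Kcn probes and 2756 of all probes differed. The genes higher in hippocampus were a Kv beta subunit (Kcnab2), Kcnc1 and Kcnc4 of the fast-spiking channel family, the leak channels Kcnk1, Kcnk4 and Kcnk12 and the modifier Kcng4. Those lower were Kcna6 with 2 probes, Kcnk13 and Kcnu1.

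**Figure D2:**
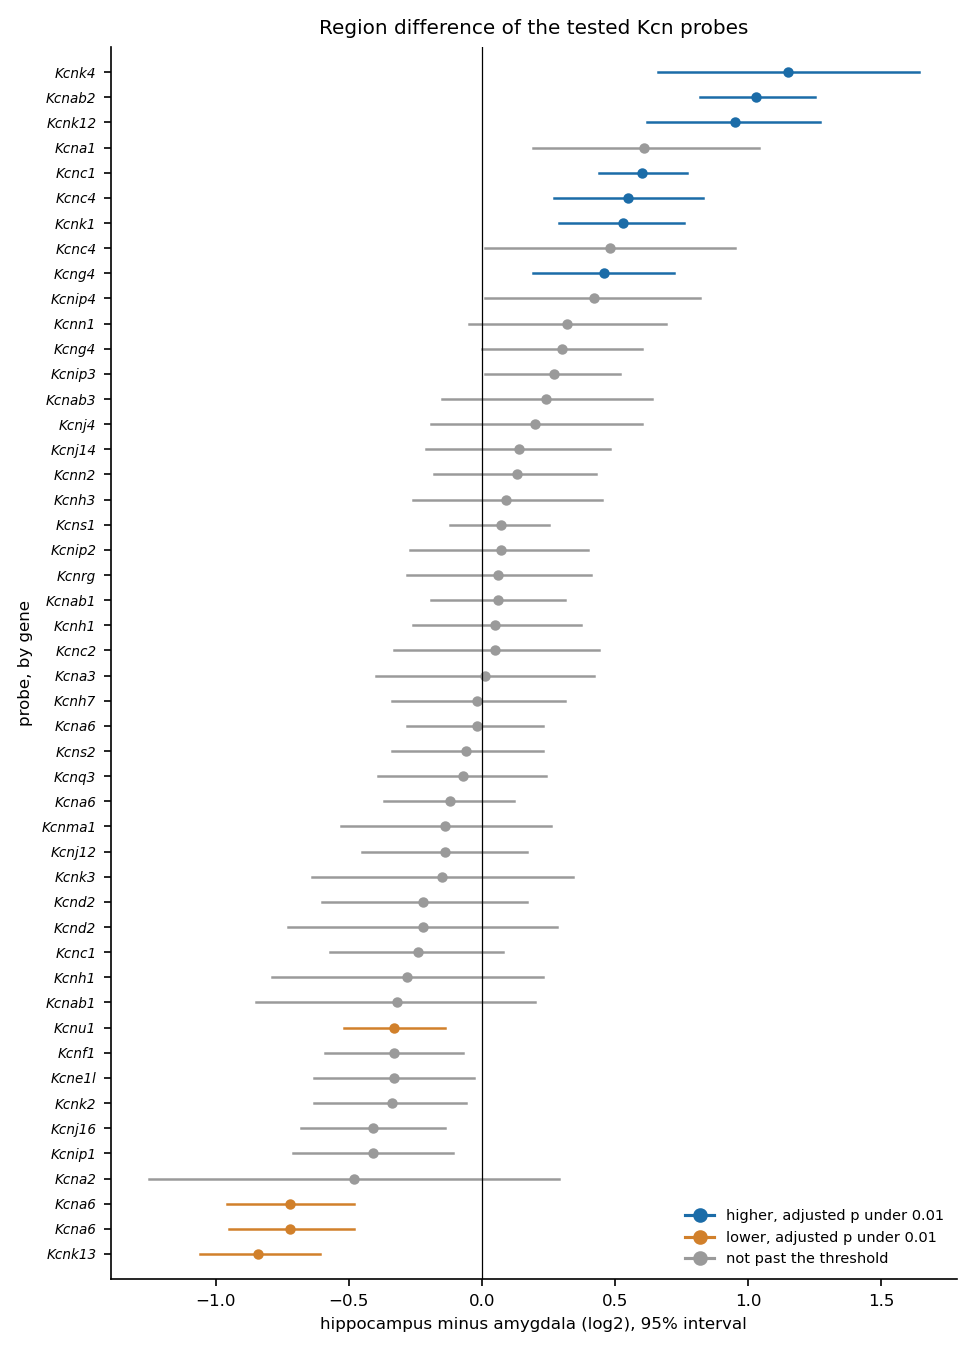
Hippocampus minus amygdala for each of the 48 tested Kcn probes on the log2 scale (x axis, point and 95% interval from the limma fit of 35 arrays), 1 row per probe, so that a gene with several probes appears more than once. The 7 probes past the threshold to the right run between 0.46 and 1.15 and the 4 to the left between -0.84 and -0.33.

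Upstream sequence is shown for the members with the clearest region differences and for the gene that differed most between strains, since these are the genes the results turn on. It comes from RefSeq on build GRCm38.p6, which held promoters for 30 of the 39 tested genes. Each line gives the 250 bases before an annotated start, 5′ to 3′ on the gene's strand. For Kcnk13 that start lies inside the gene's annotated span, which begins at 99963149, and so do all the bases shown. For Kcnc1 the annotated span begins at 46396219, so all bases shown but the first lie inside it, with every marked match. For Kcna6 the span reaches to 126740834, so the bases shown lie partly inside it. Capitals mark the GC box GGGCGG and the core TGACG of the cAMP response element, each searched on both strands, and on the opposite strand they read CCGCCC and CGTCA. For Kcnab2, with 3 annotated starts, the one farthest upstream is given.
Kcnab2, chr4:152477550-152477799, minus strand: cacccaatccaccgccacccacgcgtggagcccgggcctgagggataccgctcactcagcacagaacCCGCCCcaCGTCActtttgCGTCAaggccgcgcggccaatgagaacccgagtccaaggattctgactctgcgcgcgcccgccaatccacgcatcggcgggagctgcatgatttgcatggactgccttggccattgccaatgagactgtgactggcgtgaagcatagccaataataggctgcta
Kcnk12, chr17:87797995-87798244, minus strand: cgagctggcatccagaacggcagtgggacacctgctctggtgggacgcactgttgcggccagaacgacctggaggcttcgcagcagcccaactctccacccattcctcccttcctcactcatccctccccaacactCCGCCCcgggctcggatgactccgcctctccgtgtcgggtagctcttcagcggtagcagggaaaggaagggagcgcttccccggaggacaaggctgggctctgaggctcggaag
Kcnc1, chr7:46396218-46396467, plus strand: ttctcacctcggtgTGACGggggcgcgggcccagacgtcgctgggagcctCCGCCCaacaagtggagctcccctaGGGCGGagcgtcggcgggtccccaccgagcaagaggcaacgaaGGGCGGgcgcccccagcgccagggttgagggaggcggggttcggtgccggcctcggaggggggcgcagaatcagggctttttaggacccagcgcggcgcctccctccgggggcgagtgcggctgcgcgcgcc
Kcna6, chr6:126740675-126740924, minus strand: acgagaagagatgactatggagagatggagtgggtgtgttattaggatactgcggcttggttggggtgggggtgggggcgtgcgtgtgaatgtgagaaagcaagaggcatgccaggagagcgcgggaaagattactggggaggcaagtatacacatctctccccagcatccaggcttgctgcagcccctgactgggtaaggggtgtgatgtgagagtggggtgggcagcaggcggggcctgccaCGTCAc
Kcnk13, chr12:99964249-99964498, plus strand: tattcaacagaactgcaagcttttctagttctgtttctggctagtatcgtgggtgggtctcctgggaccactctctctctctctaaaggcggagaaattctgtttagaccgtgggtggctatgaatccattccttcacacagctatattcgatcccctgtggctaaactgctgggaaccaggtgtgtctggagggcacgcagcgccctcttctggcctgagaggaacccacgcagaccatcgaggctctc
Kcnf1, chr12:17176889-17177138, minus strand: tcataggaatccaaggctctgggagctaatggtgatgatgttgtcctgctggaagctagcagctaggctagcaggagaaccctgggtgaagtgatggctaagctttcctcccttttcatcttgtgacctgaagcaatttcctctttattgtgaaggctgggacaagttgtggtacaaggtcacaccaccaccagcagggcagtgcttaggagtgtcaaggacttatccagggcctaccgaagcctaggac
Kcnab2 had 1 GC box and 2 TGACG matches, Kcnk12 1 GC box and no TGACG, and Kcnc1 3 GC boxes and 1 TGACG. Kcna6 had 1 TGACG and no GC box, while Kcnk13 and Kcnf1 had neither. The GC box stood in 42.9% of the 49 promoters of tested Kcn genes and in 32.7% of all 32851 promoters, and TGACG in 14.3% of the Kcn promoters and 17.8% of all. A match is a description of these letters and shows no binding.

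Kcnab2, which encodes the beta subunit that binds Kv1 channels in axons, had the clearest difference. In hippocampus its level was lowest at 12.29, 12.67 in the median and highest at 13.11 over 18 arrays, against 10.99, 11.61 and 12.18 over 17 arrays of amygdala. Every array of hippocampus lay above every array of amygdala, which held for this 1 of the 48 Kcn probes and for 1.31% of all tested probes. The difference was 1.03 (SE 0.11, 2.05-fold, adjusted p = 9.3e-10), and hippocampus was the higher region on 10 of the 10 chips that held both. The A/J means were 12.63 ± 0.26 in hippocampus (SD, n = 9) and 11.81 ± 0.27 in amygdala (n = 8). The C57BL/6J means were 12.74 ± 0.28 in hippocampus and 11.49 ± 0.38 in amygdala (n = 9 each). Its relatives gave no call. Kcnab3 differed by 0.24 (95% interval -0.15 to 0.64), and the brighter Kcnab1 probe by -0.32 (-0.85 to 0.20).

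Kcnc1 and Kcnc4 belong to a channel family known for quick repolarization and firing at high rates, a trait not shared alike by all its members. Kcnc1 ran between 8.20 and 8.96 in hippocampus with a median of 8.51, against 7.52 to 8.34 in amygdala with a median of 7.91. The regions overlapped narrowly, and hippocampus was higher on 10 of 10 chips. The difference was 0.60 (SE 0.08, 1.52-fold, adjusted p = 5.2e-07). A dimmer second probe for Kcnc1, detected on 11 arrays, differed by -0.24 (95% interval -0.57 to 0.08, adjusted p = 0.378). Under median scaling the Kcnc1 difference was 0.63 with an adjusted p of 0.0870, so that the call was lost although its size was not.

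Kcnc4 ran between 10.33 and 11.76 in hippocampus with a median of 11.08, against 9.39 to 11.26 in amygdala with a median of 10.58. The difference was 0.55 (SE 0.14, adjusted p = 0.00363), and the regions overlapped over much of their range. The call was lost under median scaling (0.64, adjusted p = 0.0154) and within each of the 2 series of chip barcodes, called chip lot 1 (21 arrays, adjusted p = 0.0664) and chip lot 2 (14 arrays, adjusted p = 0.253). Its second probe, detected on 19 arrays, differed by 0.48 (95% interval 0.01 to 0.95, adjusted p = 0.173). Kcnc2, the family's remaining member on the array, differed by 0.05 (-0.33 to 0.44). This family is known from fast-spiking GABA neurons of the cortex. Of the 5 GABA neuron markers tested in the same samples, 3 were lower in hippocampus and 0 higher. Slc32a1 was among the lower (-1.83, adjusted p = 7.5e-14), and Pvalb, which marks the fast-spiking cells, differed by -0.08 (adjusted p = 0.887). Thalamic markers were higher in hippocampus for 4 of 5 genes. The part of GABA neurons or of thalamic tissue in the Kcnc1 and Kcnc4 differences was not tested.

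Among the leak channels, Kcnk12 encodes a halothane-inhibited channel subunit that is silent in many expression systems. Its level was between 5.69 and 7.72 in hippocampus with a median of 6.83, against 5.09 to 6.83 in amygdala with a median of 5.86. It was detected on 18 of 18 arrays of hippocampus and on 12 of 17 of amygdala. The difference was 0.95 (SE 0.16, 1.93-fold, adjusted p = 2.4e-05), with hippocampus higher on 10 of 10 chips.

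Kcnk4 encodes TRAAK, a leak channel opened by membrane stretch and fatty acids. It ran between 4.87 and 7.55 in hippocampus with a median of 6.64, against 4.46 to 5.91 in amygdala with a median of 5.32. Detection was on 13 of 18 arrays of hippocampus and 7 of 17 of amygdala, so many values lay near background, and the 5 undetected arrays of hippocampus lay within the range of amygdala. The difference was 1.15 (SE 0.24, adjusted p = 4.5e-04), and its size is uncertain with amygdala mostly undetected. On the authors' processed values, a scale compressed for dim probes, it was 0.07 (adjusted p = 0.00158), and within chip lots 1 and 2 it was 1.21 (adjusted p = 0.0129) and 1.24 (adjusted p = 0.0938), which missed the threshold.

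Kcnk1, the weakly conducting TWIK channel, ran between 8.85 and 10.51 in hippocampus with a median of 9.53, against 8.35 to 9.70 in amygdala with a median of 9.10. The difference was 0.53 (SE 0.11, 1.44-fold, adjusted p = 6.8e-04), and the regions overlapped. The call was lost under median scaling (0.57, adjusted p = 0.0170) and within chip lot 2 (0.34, adjusted p = 0.488). Its strains differed as well, as given further on.

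Kcnk13, which encodes THIK, the leak channel that sets the resting potential of microglia, went the other way. Its level was between 7.28 and 8.39 in hippocampus with a median of 7.87, against 8.11 to 9.22 in amygdala with a median of 8.60. The difference was -0.84 (SE 0.11, 0.560-fold, adjusted p = 1.8e-07), and hippocampus was higher on 1 of 10 chips. The microglial markers had a median difference of -0.27 with 0 of 5 past the threshold (Aif1 -0.45, C1qa -0.23, C1qb -0.27, Cx3cr1 -0.57, Tmem119 -0.03). Their summed signal was between 806 and 1885 in hippocampus and between 1119 and 2592 in amygdala. The part of these cells in the Kcnk13 difference was not tested. Of the other leak channels, Kcnk2 (TREK) differed by -0.34 (95% interval -0.63 to -0.06, adjusted p = 0.0970) and Kcnk3 (TASK) by -0.15 (-0.64 to 0.34), so the family held members on both sides.

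Kcna6, a pore subunit of the Kv1 family, was lower in hippocampus by both of its bright probes. The brighter ran between 10.12 and 11.47 in hippocampus with a median of 10.99, against 11.11 to 12.19 in amygdala with a median of 11.68. The difference was -0.72 (SE 0.12, 0.608-fold, adjusted p = 8.1e-06). The other gave 9.30 to 10.51 in hippocampus, against 10.04 to 11.17 in amygdala, and a difference of -0.72 (SE 0.12, adjusted p = 1.1e-05). These are 2 readings of 1 gene in the same samples. A further 2 probes, detected on 8 and 11 arrays, differed by -0.12 (95% interval -0.37 to 0.12) and -0.02 (-0.28 to 0.23).

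Kcna6 and Kcnab2, whose products can sit in one complex, were on opposite sides. Of the other Kv1 subunits, Kcna1 differed by 0.61 (95% interval 0.19 to 1.04, adjusted p = 0.0358), Kcna2 by -0.48 (-1.25 to 0.29) and Kcna3 by 0.01 (-0.40 to 0.42). Kcna2 had the widest spread of the 48 probes, with a pooled SD within groups of 1.18, against a median of 0.47 over Kcn probes and 0.44 over all tested probes. It was detected on 19 arrays, and in A/J amygdala its 8 values reached from 4.57 to 7.60.

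**Figure D3:**
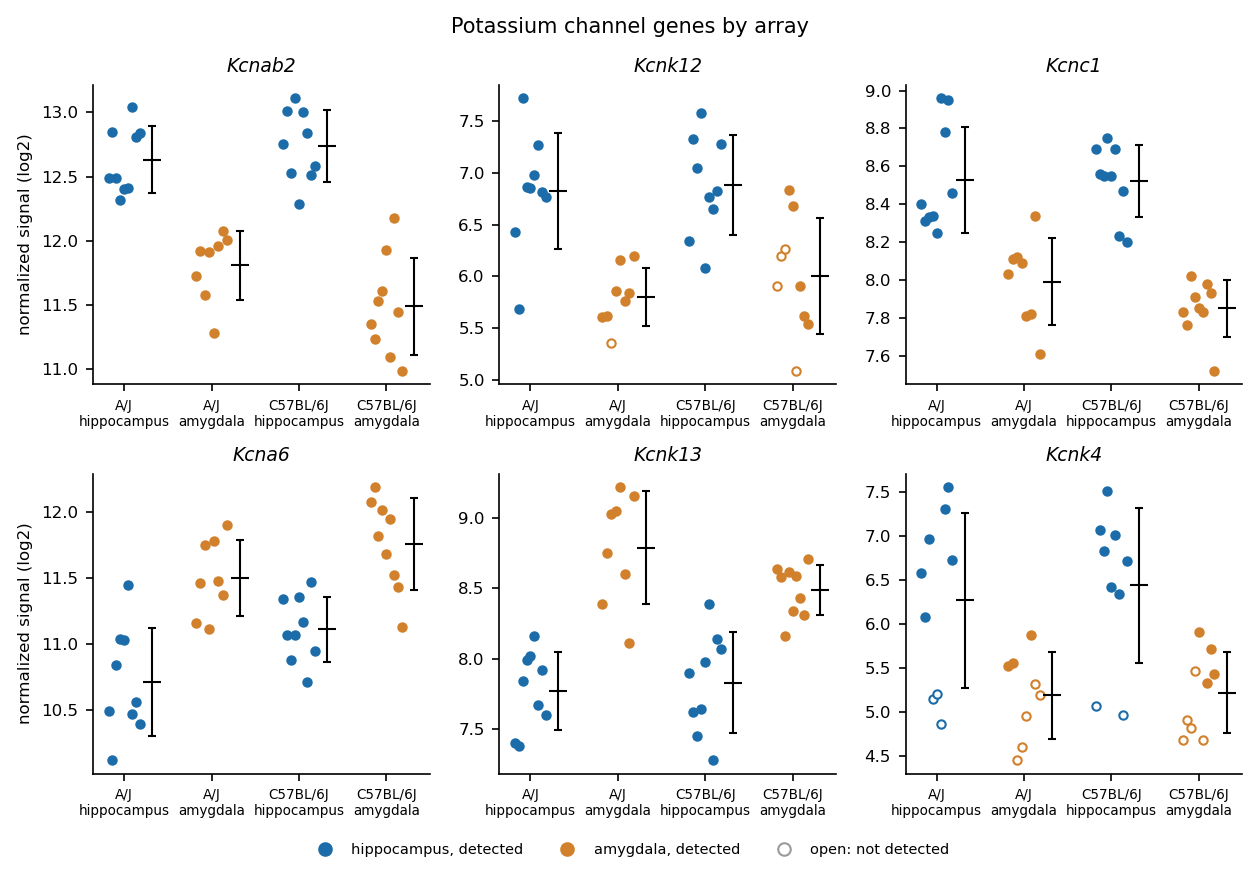
Normalized log2 signal (y axis) of the brightest tested probe of 6 Kcn genes on each of the 35 arrays, by group, with mean and SD in black beside the points and open circles for arrays where the probe was not detected. Kcnab2 separates the regions without overlap, Kcna6 and Kcnk13 lie lower in hippocampus, and Kcnk4 is undetected on 5 arrays of hippocampus and 10 of amygdala.

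A pair of small differences completed the list. Kcnu1, which is known for a sperm channel and was detected on all 35 arrays, averaged 6.64 ± 0.26 in hippocampus (SD, n = 18) and 6.97 ± 0.24 in amygdala (n = 17). The difference was -0.33 (SE 0.09, adjusted p = 0.00940). Kcng4 ran between 4.96 and 6.17 in hippocampus, against 4.49 to 5.89 in amygdala, and differed by 0.46 (SE 0.13, adjusted p = 0.00976). Its probe was detected on 9 of 18 arrays of hippocampus and 3 of 17 of amygdala, and the gene's other probe differed by 0.30 (adjusted p = 0.184). The Kcng4 call was lost with no filter on detection (adjusted p = 0.0175) and with a filter of 1 array (adjusted p = 0.0110). Of 12 alternatives, Kcng4 lost the call in 10 and Kcnu1 in 7.

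The remaining families gave no call between regions, and for the well-detected probes the intervals bound what could be missed. Kcnj16, a rectifier subunit found with its partner in astrocytes and other glia, differed by -0.41 (95% interval -0.68 to -0.14, adjusted p = 0.0250). Kcnip1, a calcium-binding partner of Kv4 channels, differed by -0.41 (-0.71 to -0.11, adjusted p = 0.0497). Kcnip3 differed by 0.27 (0.01 to 0.52) and Kcnip4 by 0.42 (0.01 to 0.82), with adjusted p of 0.160 and 0.172. The 2 probes of Kcnd2, the pore subunit these partners bind, differed by -0.22 (-0.60 to 0.17) and -0.22 (-0.73 to 0.28). The brighter Kcnh1 probe differed by -0.28 (-0.79 to 0.23), Kcnh3 by 0.09 (-0.26 to 0.45), Kcnma1 by -0.14 (-0.53 to 0.26), Kcnn2 by 0.13 (-0.18 to 0.43) and Kcnq3 by -0.07 (-0.39 to 0.24). Kcnma1 was detected on 11 arrays and Kcnq3 on 15, so most of their values lay near background and their intervals bound little. For Kcns2, Kcnrg and Kcne1l the differences were -0.06 (-0.34 to 0.23), 0.06 (-0.28 to 0.41) and -0.33 (-0.63 to -0.03). Their adjusted p were 0.879, 0.886 and 0.137.

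Genes whose products bind or cluster these channels, together with genes of the HCN pacemaker channels, were taken as a list of 28, of which 17 were tested. Of these, 2 were higher in hippocampus and 3 lower, with a median of -0.02, where 6.42% of all tested probes were higher, 5.76% lower and the median was 0.00. Abcc8, the sulfonylurea receptor of the ATP-sensitive channel, was higher by 1.11 (SE 0.17, adjusted p = 4.6e-06), whereas both Kcnj8 and Kcnj11, which encode its pore, were under the limit for testing. Dlg3, a scaffold protein, was higher by 0.45 (SE 0.08, adjusted p = 8.3e-05). Dpp10, an auxiliary subunit of Kv4 channels, was lower (-1.50, SE 0.18, adjusted p = 1.8e-08), while Dpp6 differed by -0.29 (adjusted p = 0.0450). Cntnap2, which gathers Kv1 channels beside the nodes of myelinated axons, was lower (-1.39, SE 0.24, adjusted p = 3.5e-05), as was the pacemaker channel gene Hcn3 (-0.75, SE 0.17, adjusted p = 9.3e-04). Oligodendrocyte markers were lower in the same samples, Mobp by -0.94 (SE 0.14, adjusted p = 2.7e-06), and their part in these differences was not tested.

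The region differences were then read within each strain. All 11 Kcn probes called across strains had the same sign in each of them. The call averages the strains, so such agreement was likely in advance and is no separate check. Within A/J alone 7 of the 48 Kcn probes passed the threshold, against 8.63% of all tested probes, and within C57BL/6J alone 7 passed, against 6.10% of all, with 6 probes shared. Those 6 were Kcnab2, Kcnk12, Kcnc1, Kcnk13 and both bright Kcna6 probes. Kcnc4 passed within A/J (0.77, adjusted p = 0.00652) and not within C57BL/6J (0.33, adjusted p = 0.403), and Kcnk1 passed within C57BL/6J (0.65, adjusted p = 0.00473) and not within A/J (0.40, adjusted p = 0.113). Neither contrast shows that the strains differ. The test of that difference itself, the strain by region interaction, called 0 of 48 Kcn probes at an adjusted p under 0.01, against 0.0673% of all probes, and 2 of 48 Kcn probes and 798 of all 10408 had an unadjusted p under 0.05.

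The nearest was Kcnj12, an inward rectifier gene, with an interaction of -0.95 (SE 0.31, adjusted p = 0.325). It ran between 5.97 and 6.89 in A/J hippocampus, against 6.42 to 8.22 in A/J amygdala, and between 6.37 and 7.32 in C57BL/6J hippocampus, against 5.39 to 7.14 in C57BL/6J amygdala. Its region difference of -0.61 within A/J and that of 0.34 within C57BL/6J both missed the threshold. The other was Kcnab1, at -1.06 (SE 0.52, adjusted p = 0.649), and Kcnab2 had an interaction of -0.43 (SE 0.21, adjusted p = 0.649), with the larger region difference in C57BL/6J.

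**Figure D4:**
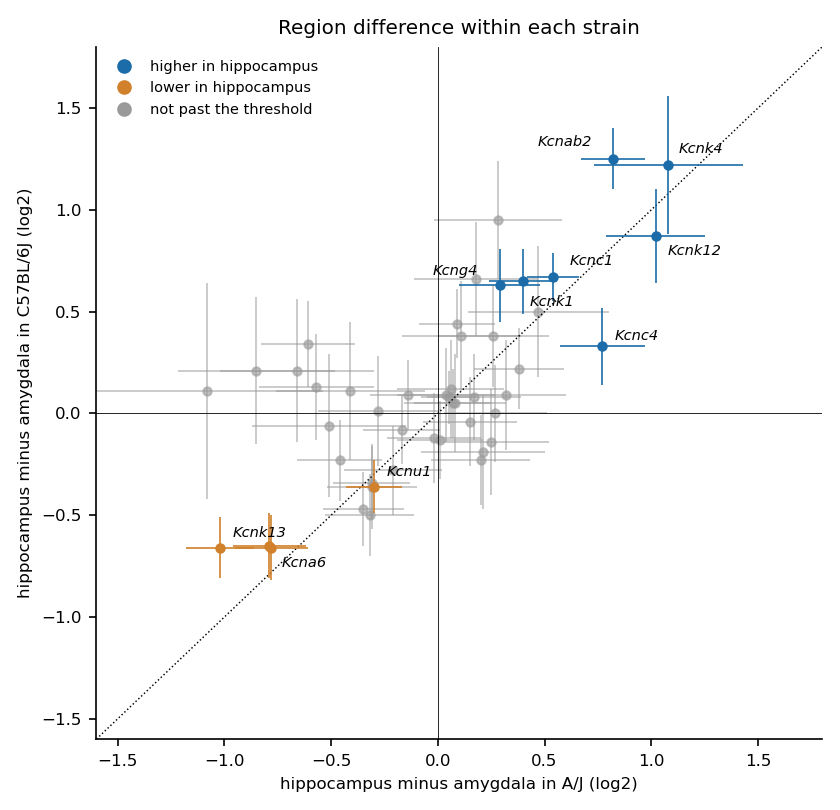
Hippocampus minus amygdala on the log2 scale in A/J (x axis) and in C57BL/6J (y axis) for the 48 tested Kcn probes, with SE bars from the fit and a dotted line of equality. The 11 probes called across strains lie in the upper right and lower left, and Kcnc4 lies farthest to the right of the line among them (0.77 in A/J, 0.33 in C57BL/6J).

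The second comparison asked which channel genes differed between the strains. None of the 48 Kcn probes was higher in A/J by limma at an adjusted p under 0.01, against 2.05% of all tested probes, and 2 were lower, which is 4.17% against 3.84% of all. At an unadjusted p under 0.05, 11 Kcn probes and 2095 of all probes differed. The median difference was -0.02 over Kcn probes and 0.05 over all, and its median size was 0.21 over Kcn probes and 0.17 over all. For no Kcn probe did the arrays of the strains fail to overlap across both regions, against 1.18% of all tested probes. These shares lie near those of all probes and say nothing particular of the Kcn genes. The 2 that were called were Kcnf1 and Kcnk1.

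Kcnf1, a silent subunit that modifies Kv2 channels, was lower in A/J in both regions. Over all arrays it ran between 6.67 and 7.85 in A/J with a median of 7.37, against 7.54 to 9.42 in C57BL/6J with a median of 8.54. The difference was -1.20 (SE 0.13, 0.435-fold, adjusted p = 3.1e-09), and A/J was higher on 0 of the 7 chips that held both strains. In hippocampus the means were 7.17 ± 0.30 in A/J and 8.35 ± 0.47 in C57BL/6J (SD, n = 9 each), and in amygdala 7.48 ± 0.31 in A/J (n = 8) and 8.70 ± 0.39 in C57BL/6J (n = 9). The strain difference was -1.18 in hippocampus (adjusted p = 7.4e-06) and -1.22 in amygdala (adjusted p = 7.9e-06), and the interaction was 0.03 (SE 0.26). Between regions Kcnf1 differed by -0.33 (95% interval -0.59 to -0.07, adjusted p = 0.0774).

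Kcnk1 was lower in A/J and also differed between regions. Its level was between 8.85 and 9.44 in A/J hippocampus with a median of 9.24, against 9.62 to 10.51 in C57BL/6J hippocampus with a median of 9.90, and these did not overlap. In amygdala it was between 8.35 and 9.34 in A/J with a median of 8.77, against 8.57 to 9.70 in C57BL/6J with a median of 9.36, and these overlapped. The difference over both regions was -0.64 (SE 0.11, 0.641-fold, adjusted p = 8.4e-05). It was -0.77 in hippocampus (adjusted p = 0.00115) and -0.52 in amygdala (adjusted p = 0.0487), with an interaction of -0.25 (SE 0.23, adjusted p = 0.750). With chip as a fixed effect the strain difference was -0.47 (adjusted p = 0.0127), which no longer passed. Read within each region, 2 of 48 Kcn probes passed between strains in hippocampus, against 3.38% of all tested probes, and 1 in amygdala, against 4.02%. Whether the strains' sequences differ under these 2 probes was not tested.

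**Figure D5:**
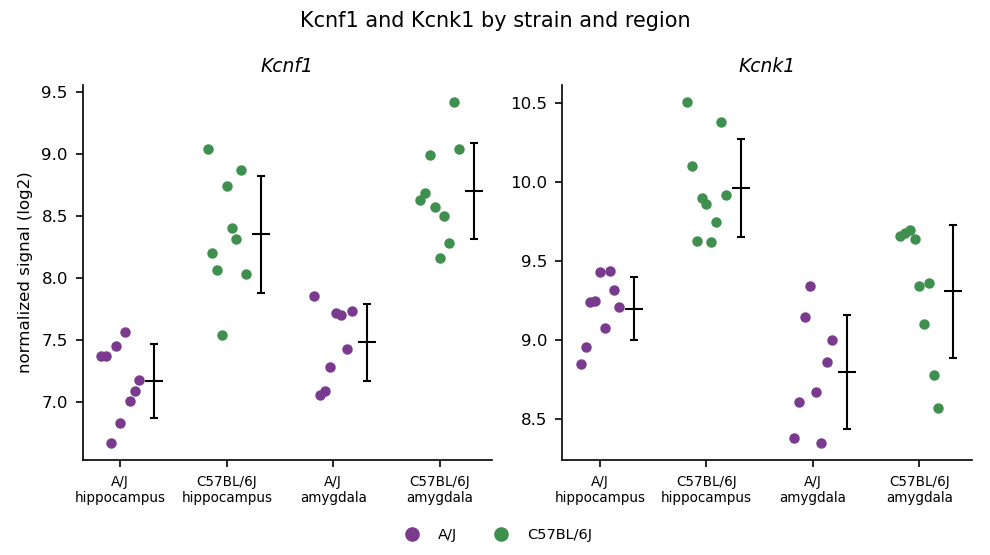
Normalized log2 signal (y axis) of Kcnf1 and Kcnk1 on each array, by strain within each region, with mean and SD in black. For Kcnf1 the A/J arrays lie between 6.67 and 7.85 and the C57BL/6J arrays between 7.54 and 9.42, and for Kcnk1 the strains separate in hippocampus and overlap in amygdala.

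Of the genes that missed the threshold between strains, the brighter Kcnd2 probe differed by 0.56 (95% interval 0.17 to 0.94, adjusted p = 0.0595), yet the gene's other probe by -0.01 (-0.51 to 0.50). Kcna6 differed by -0.33 (-0.56 to -0.10, adjusted p = 0.0696), Kcnip3 by -0.35 (-0.60 to -0.10, adjusted p = 0.0758), Kcnk2 by 0.40 (0.11 to 0.69, adjusted p = 0.0803) and Kcnh1 by -0.68 (-1.18 to -0.17, adjusted p = 0.0940). Of the 17 tested partner and HCN genes, Cntn2, an axonal adhesion protein that gathers Kv1 channels with Cntnap2, was higher in A/J (1.08, SE 0.21). None was lower. Among the genes of the cell type lists, 1 passed between strains, the microglial C1qb (-1.13, SE 0.17, lower in A/J). Of all tested probes, 2.05% were higher in A/J and 3.84% lower. The intervals of Kcnd2, Kcnk2 and Kcnh1 include differences as large as that of Kcnk1.

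For 7 genes more than 1 probe was tested, and the probes did not always give the same reading. For Kcna6, Kcnab1, Kcnc1 and Kcnh1, dim probes detected on 8 to 14 arrays stood beside bright ones detected on 34 or 35. Between regions the dim probes of these genes differed by -0.24 to 0.06, whatever the bright probe gave. For Kcnd2, whose 2 probes were both detected on all 35 arrays, the region differences were equal at -0.22 and the strain differences were 0.56 and -0.01. Which transcripts each probe covers was not tested.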

How the data were processed

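Total RNA of each sample was amplified and labelled, and the labelled cRNA was hybridised to a BeadChip. Per the study's methods each array took 1 sample of 1 mouse, which does not mean that each array had a different mouse. The authors deposited BeadStudio signals with the mean of the negative controls subtracted, and a detection score for each probe and array (1 minus the detection p). They also deposited processed log2 values (variance-stabilised, spline-normalized), which served as an alternative. Probe symbols came from the platform annotation.

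Signals at or below 0 made up 31.0% of values, so signals were corrected by normexp with negative control moments inferred from the detection p, an offset of 16 was added, and arrays were quantile normalized and taken to log2 (limma 3.58.1, R 4.3.3). A probe had to reach a detection p below 0.01 on 8 or more of the 35 arrays to be tested (10408 of 24620 did). One linear model with 4 groups gave the region difference (hippocampus minus amygdala, mean of strains), the strain difference (A/J minus C57BL/6J, mean of regions) and their interaction, with moderated tests and Benjamini-Hochberg adjustment over all tested probes at 0.01. The fit was tested on simulated data. Intervals are 95% and unadjusted. No signal is a count, so the number of arrays limits the precision.

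The labels do not tie samples to animals. By the study's methods the regions were punched from the brains of the mice, so 1 mouse could give both. Samples were treated as independent, so the region test ignores any such pairing. The arrays lay on 11 chips of 2 barcode series, called chip lots here (21 and 14 arrays). Named probes were, for 1 probe a gene (the highest mean), the largest 14 region and 8 strain differences past the threshold, any interaction, the highest-mean gene of each subfamily, and every tested probe of genes with several. Further genes are named beside them where a range, a list or a miss is described. The members, gene lists and rules were chosen with earlier results of these data known. Promoters came from RefSeq (GRCm38.p6).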

Additional observations from a re-analysis of the deposited data

Results flagged for a closer look

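Among the 32 named probes and 4 groups, 128 sets of arrays in all, 7 arrays stood apart from the rest of their group by Dixon's ratio, where chance alone flags about 1 in 20 groups, or 6.40 here. Of the 7, 4 were in dim probes near background.

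In C57BL/6J amygdala, replicate 3 had 6.47 for a dim Kcna6 probe (next array 5.50), replicate 5 had 9.27 for Kcnh3 (next 8.48), and replicate 6 had 6.32 for the brighter Kcnh1 probe (next 7.77, on the low side). In C57BL/6J hippocampus, replicate 7 had 6.29 for the dim Kcnc1 probe (next 5.08) and replicate 8 had 6.35 for the dim Kcnh1 probe (next 5.66). In A/J hippocampus, replicate 6 had 6.59 for the dim Kcnab1 probe (next 5.67), and in A/J amygdala, replicate 3 had 6.62 for Kcnrg (next 5.79). None of these probes was called between regions or strains.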

How the results depend on the processing

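Of the 12 alternatives that gave a value for each named probe, none turned round a difference past the threshold. Kcnab2 and Kcnk13 between regions and Kcnf1 between strains passed under all 12. The number of Kcn probes higher in hippocampus, 7 in the main analysis, was 3 under median scaling (beside 3 lower), 4 in chip lot 1 alone (21 arrays) and 1 in chip lot 2 alone (14 arrays), and the number lower was 2 in lot 2. No share over all probes stands beside these counts, so they show only how many Kcn calls held. The lots hold fewer samples, and all 11 region differences kept their sign within each. The lots are parts of the arrays that gave the calls, so this is no separate check. The number lower in A/J was 1 under that scaling, 1 with chip as a fixed effect and 1 in lot 1, and each time Kcnf1 was the gene left. Every other count lay within 1.5 times of the main one, and the interaction called 0 Kcn probes in every setting, by limma. Median scaling moved the median strain difference of all probes to 0.25, so the Kcnk1 value of -0.37 there is to be read against it, and it kept 6 of the 11 region calls.

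Kcng4 passed with chip as a random effect and with the detection covariate, at an adjusted p under 0.01. Kcnk1 between strains missed it in 4 alternatives. The authors' processed values kept 9 of 11 region calls on a compressed scale for dim probes (Kcnk4 0.07). No paired analysis was possible because the labels do not tie samples to animals and replicate numbers follow accession order. Probes detected on few arrays limit what can be seen for most Kcnj genes.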
